A study of Mus musculus with 3 samples.

Results

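The genes of the CDK inhibitors and of the retinoblastoma family were read on 3 arrays of mouse LT-HSCs (long-term hematopoietic stem cells), which sit in the bone marrow and keep the blood system going for life. They comprised 9 genes, chosen by name, of 37324 on the array: the Cip/Kip inhibitors Cdkn1a and Cdkn1b, the Ink4 inhibitors Cdkn2a, Cdkn2b, Cdkn2c and Cdkn2d, and the pocket proteins Rb1, Rbl1 and Rbl2. Together they had 18 of the 56605 probes.

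The cells were sorted from C57BL/6J mice of 3 genotypes, 11 weeks old per the sample labels, although the series text has tamoxifen at about 5 weeks and analysis 4 weeks later. AtmsKO mice carried floxed Atm, the gene of the kinase mutated in ataxia-telangiectasia, and Atmp38dKO mice carried floxed Atm and floxed p38α, the stress kinase gene Mapk14. Both also carried CAG-CreERT2, a Cre recombinase that acts after tamoxifen and is driven by a ubiquitous promoter, so that deletion was not limited to blood cells. Control (WT) mice were given tamoxifen too and carried no Cre. The study's methods describe such controls as mice with floxed Atm, with or without floxed p38α. Active Cre was thus present in the mutants only, and its effect cannot be told apart from that of losing Atm. The sort took lineage-negative, Sca-1+, c-Kit+ cells without CD34 and Flt3, to which the labels add CD150+ and CD48- and the study's methods CD41-. Each genotype had 1 array, and the number of mice behind it is not stated. Without replicate arrays the spread between mice is unknown and no test was possible, so each value below compares single arrays.

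As background, a cell enters the cycle when cyclin D with Cdk4 or Cdk6, and then cyclin E with Cdk2, phosphorylate the pocket proteins. Unphosphorylated pocket proteins hold E2F factors and keep the genes of DNA replication silent. Ink4 inhibitors bind Cdk4 and Cdk6 alone, whereas Cip/Kip inhibitors bind cyclin complexes more broadly. LT-HSCs are mostly quiescent, and p21 (Cdkn1a), p27 (Cdkn1b), p57 (Cdkn1c) and the pocket proteins have all been linked to that state. Cdkn1a is also the classic target of p53, which Atm activates after DNA breaks.

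Processed signals are given as multiples of the array's 75th percentile of signal, which was 102, 96.2 and 118 units in the order WT, AtmsKO and Atmp38dKO, and differences are log2 ratios of these scaled signals. An error after ± is the scanner software's own error estimate for the spots. It leaves out all variation between mice, sorts and labelling reactions, and the disagreement between probes of the same gene. Over 11640 probes well above background on all arrays, that disagreement was larger than most of these errors. The difference at such a probe lay a median of 0.37 to 0.38 on the log2 scale from that at the gene's brightest probe. The 90th percentile of this gap was 1.11 to 1.16. A probe counted as different if the arrays were at least 2-fold apart and the probe was well above background on the brighter array. Levels of different probes are not comparable, because each probe hybridizes with its own efficiency.

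Some facts of the arrays bear on every value. Between 68.9% and 77.7% of probes were well above background, no probe was saturated, and all 3 arrays shared a slide and a scan. All 12 LT-HSC markers, among them Procr, Slamf1 and Kit, were well above background on every array, but so were Cd34, Flt3, Cd48 and Itga2b (CD41), the genes of the 4 surface proteins that the gates select against. Atm was lower on the AtmsKO array at both of its probes (-2.37 ± 0.24 and -1.79 ± 0.22). On the array labelled Atmp38dKO, Atm was lower by 2.10-fold at one probe and by 1.17-fold at the other. Mapk14 was not lower there at either probe (0.18 ± 0.20 and 0.01 ± 0.20). Whether these probes lie in the deleted exons is not known here, so the array is called by its label.

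Cdkn1a was the member with the largest differences, and all 3 of its probes read lower on both mutant arrays than on the WT array. The probes lie along the gene in this order on mm9 chromosome 17, plus strand. The first 30 bases of each are shown because they read different stretches of the gene and are assigned to different transcripts:
Probe 1, chr17:29227986-29228045, from base 55 of NM_001111099: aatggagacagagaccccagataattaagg
Probe 2, chr17:29235299-29235358, from base 147 of ENSMUST00000122348: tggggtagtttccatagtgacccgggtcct
Probe 3, chr17:29237377-29237436, from base 1619 of NM_007669: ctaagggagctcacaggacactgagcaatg

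Probe 3, the brightest and the one nearest the 3′ end, read 2.10 for WT, 0.984 for AtmsKO and 1.14 for Atmp38dKO. The WT array was high and both mutant arrays lay close together below it. The difference was -1.10 ± 0.21 for AtmsKO against WT, or 2.14-fold lower, and -0.88 ± 0.20 for Atmp38dKO against WT, or 1.84-fold lower. The direct difference of Atmp38dKO against AtmsKO was 0.22 ± 0.21, close to its error. In bulk RNA, fewer cells that express a gene and less of its RNA per cell cannot be told apart.

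Probe 1, the most upstream, read 0.222, 0.0642 and 0.0773 in the same order, and for AtmsKO it was not well above background. It was therefore at least 3.46-fold lower on the AtmsKO array, and 2.88-fold lower (-1.52 ± 0.28) on the array labelled Atmp38dKO. Probe 2 read 0.567, 0.499 and 0.329. It was lower by 0.78 ± 0.21 on the log2 scale on the array labelled Atmp38dKO, whereas on the AtmsKO array the difference (-0.18 ± 0.21) was within its error. The probes thus had the same sign against WT but not the same size, and in Atmp38dKO against AtmsKO probe 2 differed by -0.60 ± 0.21. In that comparison probe 1 gave 0.27 ± 0.41, within its error, and -0.14 under normexp.

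**Figure D1:**
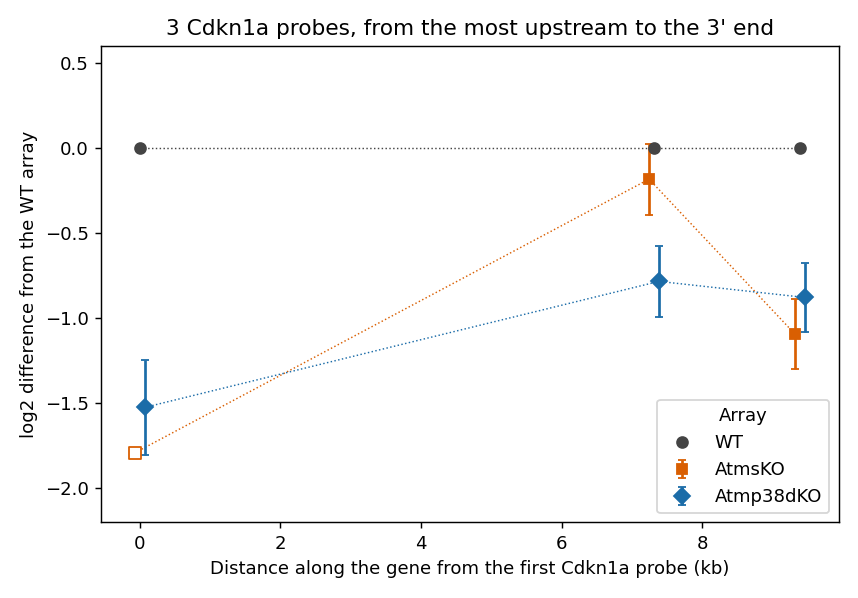
Log2 difference of each Cdkn1a probe from the WT array (y axis) against distance along the gene from the most upstream probe in kb (x axis), with bars for the scanner's error estimate and an open symbol where the probe was not well above background. Symbols are shifted slightly sideways for legibility and dotted lines only join the probes of an array. Both mutant arrays lie below WT at 0, 7.31 and 9.39 kb, and the AtmsKO array comes nearest to WT at the middle probe (-0.18).

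By the brightest probe, Cdkn1a was the only one of the 9 genes at least 2-fold lower on the AtmsKO array, and no member was at least 2-fold higher. Of all 29043 genes measured, 4.04% were at least 2-fold lower and 3.86% at least 2-fold higher. By probe, 2 of the 16 measured member probes were lower, both of Cdkn1a, and none was higher, where 4.74% of all probes were lower and 4.29% higher. On the array labelled Atmp38dKO no member gene passed against WT (3.98% of all genes were higher and 4.46% lower), and 1 probe did, the upstream Cdkn1a probe (5.07% of all probes were lower and 4.69% higher). Against AtmsKO none of the 9 genes passed, where 3.72% of all genes were higher and 3.64% lower, nor did any member probe (4.39% and 4.07% of all probes). At 1.5-fold and by the brightest probe, Cdkn1a was again the only member apart for AtmsKO against WT. There 10.0% of all genes were higher and 10.2% lower. Rb1 was higher and Cdkn1a lower for Atmp38dKO against WT (10.9% and 10.6%), and Rb1 was higher for Atmp38dKO against AtmsKO (10.0% and 8.76%). By probe, the dimmer Rb1 probe and Cdkn1a probes 1 and 3 were lower for AtmsKO against WT (11.7% of all probes). For Atmp38dKO against WT, 1 probe each of Rb1 and Rbl1 was higher and all 3 Cdkn1a probes lower (12.3% and 12.2%). Against AtmsKO both Rb1 probes were higher and Cdkn1a probe 2 lower (11.4% and 9.99%). A single gene of 9 is too few to set against shares of this size. Among probes as bright as Cdkn1a probe 3, with a mean signal of 50 to 200 units, 6.01% were at least 2-fold apart between the AtmsKO and WT arrays, and among those under 20 units, such as probe 1, 14.7% were.

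The size of the Cdkn1a difference from WT depended on the background correction, and its sign did not. With normexp correction, which here adds 50 units to every spot, probe 3 differed by -0.78 for AtmsKO and -0.66 for Atmp38dKO, short of 2-fold, and probe 1 by -0.30 and -0.44. With the mean over the 3 probes in place of the brightest, Cdkn1a passed against WT in both mutants (-1.02 and -1.06). Those means take in probe 1, the dimmest, which had the largest difference in both (-1.79, a bound, and -1.52).

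The reference promoters of Cdkn1a are shown because the gene has 2 start sites, 2.79 kb apart, and only the upstream one carries a match to a p53 response element. Each window is the 250 bases before a start (RefSeq, GRCm38.p6, plus strand), and capitals mark the match:
Cdkn1a upstream, chr17:29090729-29090978: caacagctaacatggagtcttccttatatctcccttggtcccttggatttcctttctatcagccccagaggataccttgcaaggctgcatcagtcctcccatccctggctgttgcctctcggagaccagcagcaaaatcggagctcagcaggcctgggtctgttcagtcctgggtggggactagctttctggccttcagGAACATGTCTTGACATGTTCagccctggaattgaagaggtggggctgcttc
Cdkn1a downstream, chr17:29093519-29093768: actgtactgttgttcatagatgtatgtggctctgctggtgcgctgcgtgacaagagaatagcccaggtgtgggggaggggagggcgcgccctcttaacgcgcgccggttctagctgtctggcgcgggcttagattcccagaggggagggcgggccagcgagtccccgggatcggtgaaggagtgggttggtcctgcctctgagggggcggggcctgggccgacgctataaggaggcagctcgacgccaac
The element was searched over both strands as 2 half-sites with no spacer and at most 1 mismatch, and 0.0578% of the 32851 promoter windows held one. The match begins 51 bases before the upstream start. The downstream window holds 2 GC boxes (GGGCGG), a motif found in 32.7% of windows. The array probes are placed on mm9, so they were not assigned to either start by position. A match describes these letters and shows no binding.

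The regulators that act on these genes had medians near those of all genes against WT. All 28 on the list, which holds p53 and its brakes, Polycomb proteins, Foxo factors and the TGF-β pathway, were well above background, and their median difference was 0.00 for AtmsKO and -0.05 for Atmp38dKO against WT, beside 0.01 and 0.02 over all genes. In Atmp38dKO against AtmsKO 20 of the 28 were lower and 8 higher, with a median of -0.13 beside 0.00 over all genes, of which 49.5% were higher. Trp53, the gene of p53, differed by 0.02 ± 0.20 and -0.18 ± 0.20, and Mdm2, both a target and a brake of p53, by -0.16 ± 0.20 and -0.54 ± 0.20, with the opposite sign at its other measured probe. Across the 3 comparisons, 3.64% to 4.46% of all genes were at least 2-fold apart in each direction. In AtmsKO against WT 1 of the 28 was at least 2-fold apart, the Polycomb gene Cbx8 (-1.65 ± 0.24). In Atmp38dKO against WT it was Id1 (-1.36 ± 0.20), an inhibitor of basic helix-loop-helix factors. In Atmp38dKO against AtmsKO it was Ets1 (-1.05 ± 0.21), whose other measured probe had the opposite sign. Bmi1, the Polycomb gene best known for silencing Cdkn2a, differed by -0.54 ± 0.20 and -0.42 ± 0.20 against WT, and its other probe had the opposite sign in both. Zbtb17, which encodes Miz1, a factor that acts on Cdkn1a and Cdkn2b, was 1.96-fold and 1.76-fold higher, short of the threshold. Under normexp Cbx8 (-0.56) and Ets1 (-0.59) fell short of 2-fold, and Id1 (-1.07) did not.

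A few genes had nearly the same profile over the 3 arrays as Cdkn1a probe 3. They were Gm35343, 9030025P20Rik and B130034C11Rik, at Euclidean distances of 0.003, 0.012 and 0.017 between their centred log2 values. Of 1903 genes with a range of at least 1 on the log2 scale, 34 lay within 0.1, so with 3 arrays such a likeness is common.

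Cdkn1b, the gene of p27, was slightly higher on both mutant arrays. Its brighter probe (mm9 chr6:134875424-134875483) read 5.03, 5.83 and 5.60 for WT, AtmsKO and Atmp38dKO, and its other probe 0.389, 0.444 and 0.448. Both probes gave differences against WT between 0.15 and 0.21, about as large as the error estimate of 0.20 to 0.22. The protein of Cdkn1b is removed by the SCF-Skp2 ubiquitin ligase, and 4 of 5 genes on the list for that step were measured, Skp1a being at background on every array. Skp2, the subunit that binds p27, was 2.29-fold lower on the AtmsKO array than on the WT array and 2.41-fold lower than on the array labelled Atmp38dKO. Its other measured probe had the opposite sign in every comparison, and under normexp both differences were under 2-fold (-0.59 and 0.66).

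Cdkn1c, which encodes p57, the other Cip/Kip inhibitor, is not among the 9 genes. Its single probe (mm9 chr7:150644297-150644356) read 1.86, 1.43 and 1.22. The order was that of Cdkn1a probe 2, highest on WT, but the differences of -0.38 ± 0.20 and -0.61 ± 0.20 against WT did not reach 2-fold.

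**Figure D2:**
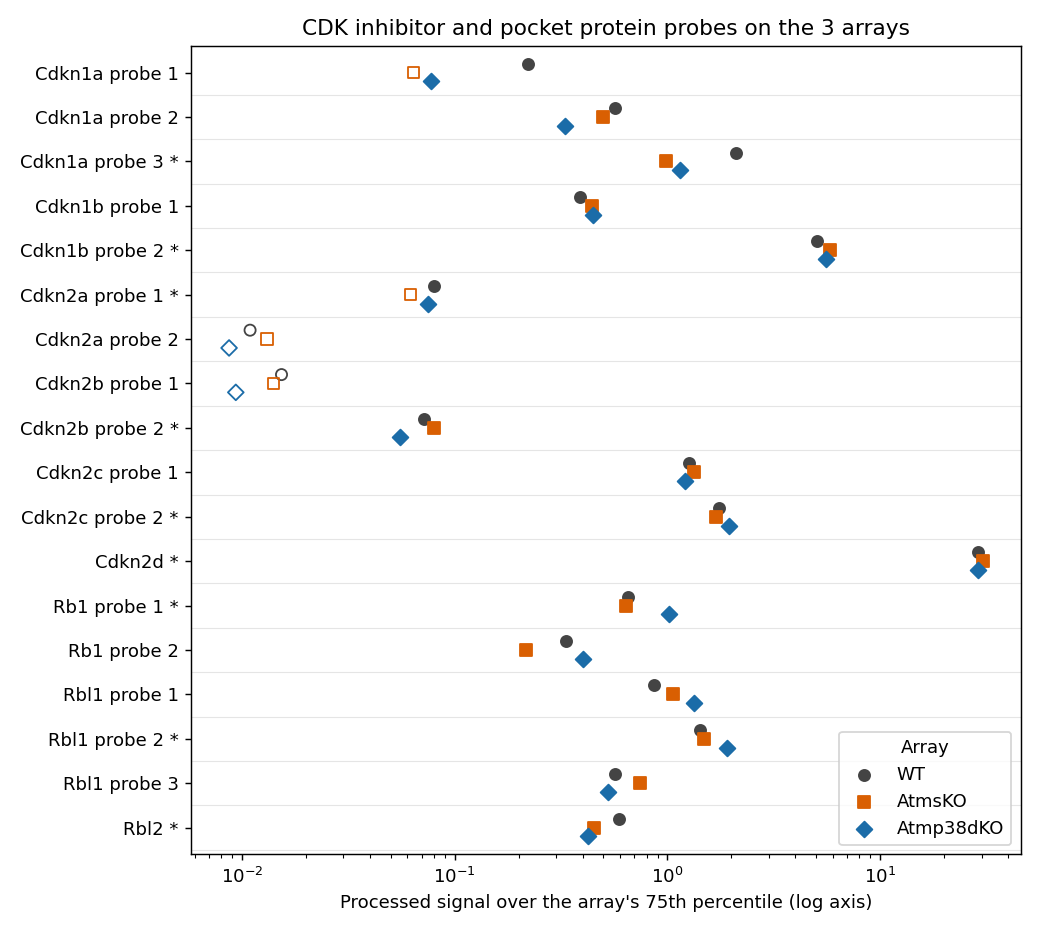
Processed signal over the array's 75th percentile (log x axis) of each of the 18 probes on each of the 3 arrays, with open symbols where a probe was not well above background and an asterisk at the brightest probe of a gene. Points should be compared along a row: the WT array stands apart at Cdkn1a probes 1 and 3, and the array labelled Atmp38dKO at Rb1 probe 1.

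Of the Ink4 genes, 2 were near background and 2 well above it. Cdkn2a, which encodes p16Ink4a and, from another reading frame, p19Arf, and its neighbour Cdkn2b, which encodes p15Ink4b, were at the edge of detection. Each had 1 probe that was not well above background on any array. The other Cdkn2a probe (mm9 chr4:88920405-88920464) read 0.0804 for WT, 0.0619 for AtmsKO, where it was not well above background, and 0.0750 for Atmp38dKO. The difference from WT was -0.34 ± 0.44 for AtmsKO, with the dim value raised to the lowest measurable signal of that array, and -0.10 ± 0.34 for Atmp38dKO. Both were within their error, and under normexp the AtmsKO difference was 0.00. Both Cdkn2a probes lie toward the 3′ end, which the p16Ink4a and p19Arf transcripts share, so the 2 products cannot be told apart. The measured Cdkn2b probe (mm9 chr4:88952437-88952496) read 0.0714, 0.0799 and 0.0556, with an error estimate of 0.43 to 0.46 on each log2 difference. No difference of Cdkn2b beyond that error was detectable at this signal, apart from -0.52 ± 0.43 for Atmp38dKO against AtmsKO.

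Cdkn2c, the gene of p18Ink4c, and Cdkn2d, the gene of p19Ink4d, were well above background on all arrays and nearly level. The Cdkn2c probes, which overlap in position (mm9 chr4:109333779-109333838 for the brighter), read 1.74, 1.70 and 1.96, and 1.27, 1.34 and 1.22. Their differences lay between -0.13 and 0.21 in the 3 comparisons, with errors of 0.20 to 0.21. Cdkn2d (mm9 chr9:21092934-21092993) read 28.8, 30.4 and 28.9, with differences of 0.08 ± 0.20, 0.00 ± 0.20 and -0.07 ± 0.20. Of the 9 genes it had the narrowest range, and at its signal, over 1000 units, only 0.166% of all probes were at least 2-fold apart between the AtmsKO and WT arrays.

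**Figure D3:**
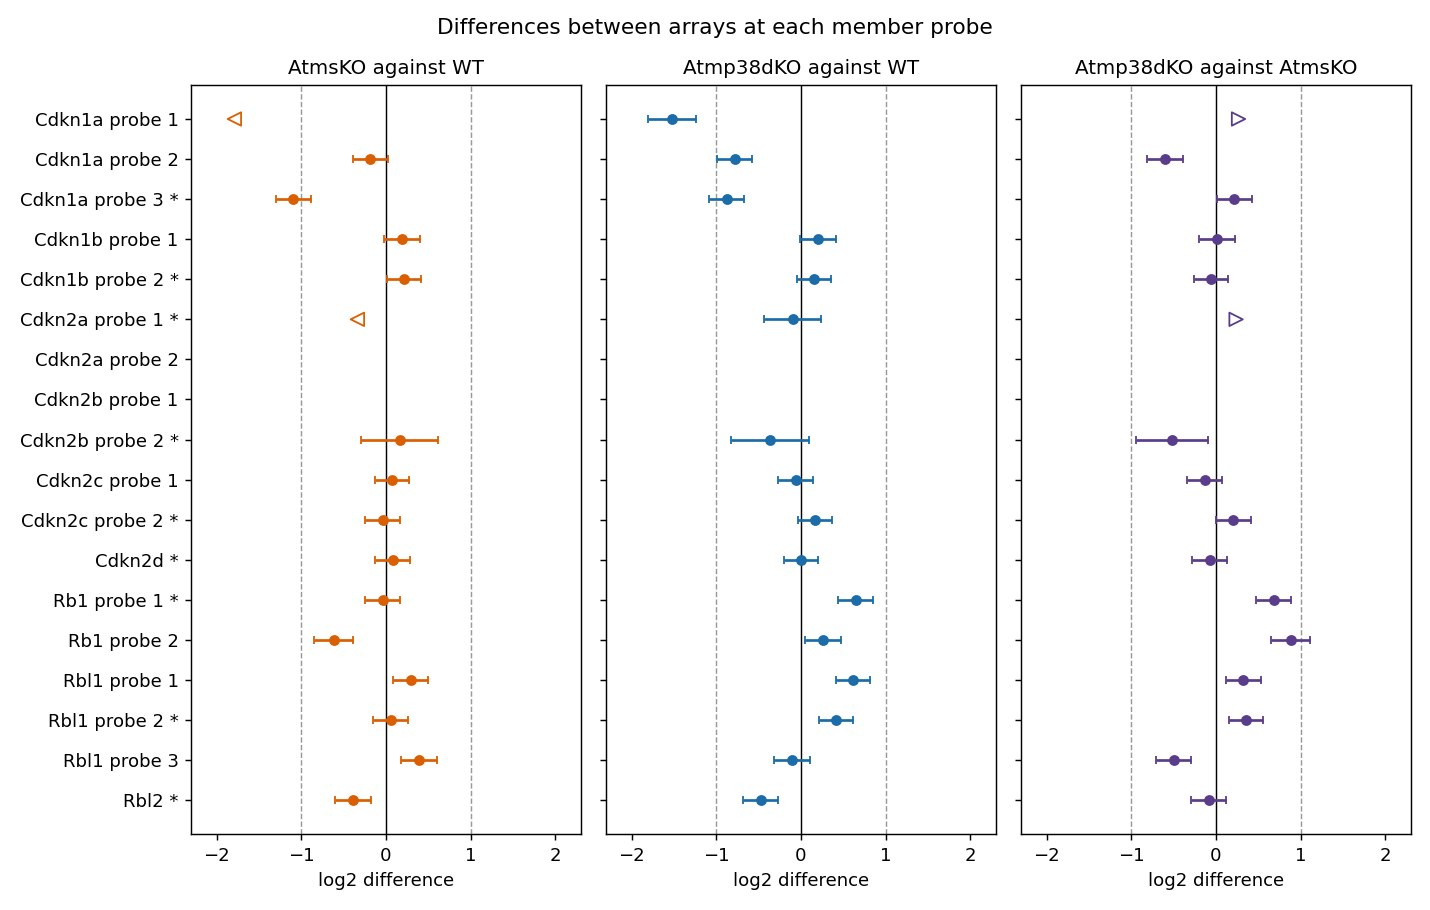
Log2 difference of every member probe (x axes) in the 3 comparisons, with bars for the scanner's error estimate, triangles for bounds where 1 array was not well above background, and dashed lines at 2-fold. The 3 Cdkn1a probes lie lowest in Atmp38dKO against WT, Cdkn1a probes 1 and 3 lie lowest in AtmsKO against WT, and both Rb1 probes lie highest in Atmp38dKO against AtmsKO (0.68 and 0.88).

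Among the pocket proteins, Rb1 and Rbl1 were higher on the array labelled Atmp38dKO and Rbl2 was not. Rb1, the retinoblastoma gene, has 2 probes on mm9 chromosome 14, minus strand. The brighter (chr14:73595408-73595467) read 0.654, 0.637 and 1.02, and the other (chr14:73596841-73596900) read 0.333, 0.217 and 0.400. The array labelled Atmp38dKO was highest at both. Against AtmsKO the difference was 0.68 ± 0.21 and 0.88 ± 0.23, or 1.61-fold and 1.84-fold. Against WT it was 0.65 ± 0.21 and 0.26 ± 0.21, and the second is near its error. Under normexp the differences were 0.42 and 0.25 against AtmsKO and 0.41 and 0.09 against WT, all short of 1.5-fold. The 2 probes did not give 1 answer for AtmsKO against WT (-0.04 ± 0.21 and -0.62 ± 0.23). None reached 2-fold.

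Rbl1, which encodes p107 and is itself switched on by E2F when cells cycle, has 3 probes on mm9 chromosome 2, minus strand. The brightest (chr2:157000761-157000820) read 1.43, 1.49 and 1.90, and the probe nearest the 3′ end (chr2:156972143-156972202) read 0.869, 1.07 and 1.33. At these the array labelled Atmp38dKO was above WT by 0.41 ± 0.20 and 0.62 ± 0.21. The remaining probe spans a splice junction, with its bases spread over 3631 bases of the genome (chr2:157014059-157017689), and read 0.565, 0.741 and 0.525. It was highest on the AtmsKO array (0.39 ± 0.21 against WT) and gave -0.11 ± 0.21 for Atmp38dKO against WT. Its sequence is shown because it went against the other 2:
Rbl1 junction probe, from base 1282 of NM_001139516: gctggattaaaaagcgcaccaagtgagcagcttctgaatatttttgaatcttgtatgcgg

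The Rbl1 promoter is shown because it carries a match to an E2F site. The window is the 250 bases before the start (RefSeq, GRCm38.p6, minus strand), with the match in capitals:
Rbl1, chr2:157204535-157204784: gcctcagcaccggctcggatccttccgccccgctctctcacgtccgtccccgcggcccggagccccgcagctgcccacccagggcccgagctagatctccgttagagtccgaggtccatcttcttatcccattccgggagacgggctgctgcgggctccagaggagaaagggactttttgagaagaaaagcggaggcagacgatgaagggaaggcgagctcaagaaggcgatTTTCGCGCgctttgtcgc
The match to TTTNGCGC begins 18 bases before the start, and 1.13% of the 32851 windows hold that motif on either strand. Of the 8 member genes with a window in the table, Cdkn2a had the same motif at 1 of its 2 starts. A second E2F form, TTTCCCGC, was in 0.895% of windows and in the other Cdkn2a window.

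Rbl2, which encodes p130, the pocket protein most abundant in resting cells, went the other way. Its single probe (mm9 chr8:93647120-93647179) read 0.591, 0.452 and 0.425, lower on both mutant arrays by 0.39 ± 0.21 and 0.47 ± 0.21 on the log2 scale. The median difference over the 3 pocket protein genes was 0.41 for Atmp38dKO against WT and 0.36 against AtmsKO, but it rests on Rb1 and Rbl1. Over all 9 genes the median was -0.04 for AtmsKO against WT, 0.00 for Atmp38dKO against WT and 0.21 for Atmp38dKO against AtmsKO, where all genes gave 0.01, 0.02 and 0.00. The comparisons share arrays and are not independent of each other.

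Among the partners of these proteins, the 8 G1 cyclins and CDKs were all well above background and none was 2-fold apart in any comparison. Over all genes 3.64% to 4.46% were at least 2-fold apart in each direction. Lists this short are too small to set against such shares. Ccnd1, the gene of cyclin D1, came nearest, at 0.56 ± 0.20 for both Atmp38dKO against WT and Atmp38dKO against AtmsKO, and Cdk2 read 0.48 ± 0.20 for Atmp38dKO against WT. Ccnd2 gave -0.53 ± 0.20 for AtmsKO and -0.46 ± 0.20 for Atmp38dKO against WT, but its 2 other probes did not all share that sign. For AtmsKO against WT, Ccne1 gave 0.44 ± 0.22 and Ccne2 -0.47 ± 0.25. Cdk4 and Cdk6, the kinases that Ink4 proteins bind, lay within 0.19 of WT on both mutant arrays. The 6 genes of the MuvB core and B-Myb, which join p107 or p130 and E2F in the DREAM repressor complex or act after it in the cycle, had no difference of 2-fold either. Their medians were -0.05, 0.10 and 0.20 in the 3 comparisons.

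Of the 10 E2F and DP genes, 1 was 2-fold apart, in Atmp38dKO against AtmsKO, where 3.72% of all genes were higher and 3.64% lower. E2f8, an E2F repressor that is itself an E2F target, was 2.23-fold higher on the array labelled Atmp38dKO than for AtmsKO, and its other measured probe had the same sign. Against WT it was -0.60 ± 0.21 for AtmsKO, with the same sign at the other probe, and 0.56 ± 0.20 for Atmp38dKO, with the opposite sign there. Under normexp it was 0.78 for Atmp38dKO against AtmsKO, short of 2-fold. E2f3, an activator that Rb1 binds, was higher on both mutant arrays (0.74 ± 0.21 and 0.81 ± 0.21), and E2f4 and E2f5, which pair with Rbl1 and Rbl2, were dim and lower (-0.59 ± 0.26 and -0.85 ± 0.24 for Atmp38dKO against WT).

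The 31 genes that E2F and DREAM control, from the Mcm helicase to mitotic genes such as Plk1, were all measured and none was 2-fold apart in any comparison. Of all genes, 3.64% to 4.46% were at least 2-fold apart in each direction. For AtmsKO against WT 23 of 31 were above 0, with a median of 0.13. For Atmp38dKO against WT 19 of 31 were above 0, with a median of 0.09, and for Atmp38dKO against AtmsKO 15 were, with a median of -0.01. Over all genes 51.0%, 52.2% and 49.5% were above 0. Mki67, the gene of the proliferation antigen Ki-67, gave 0.25 ± 0.20 and 0.10 ± 0.20 against WT, and the mitotic cyclin gene Ccnb1 gave 0.42 ± 0.20 and -0.53 ± 0.21.

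**Figure D4:**
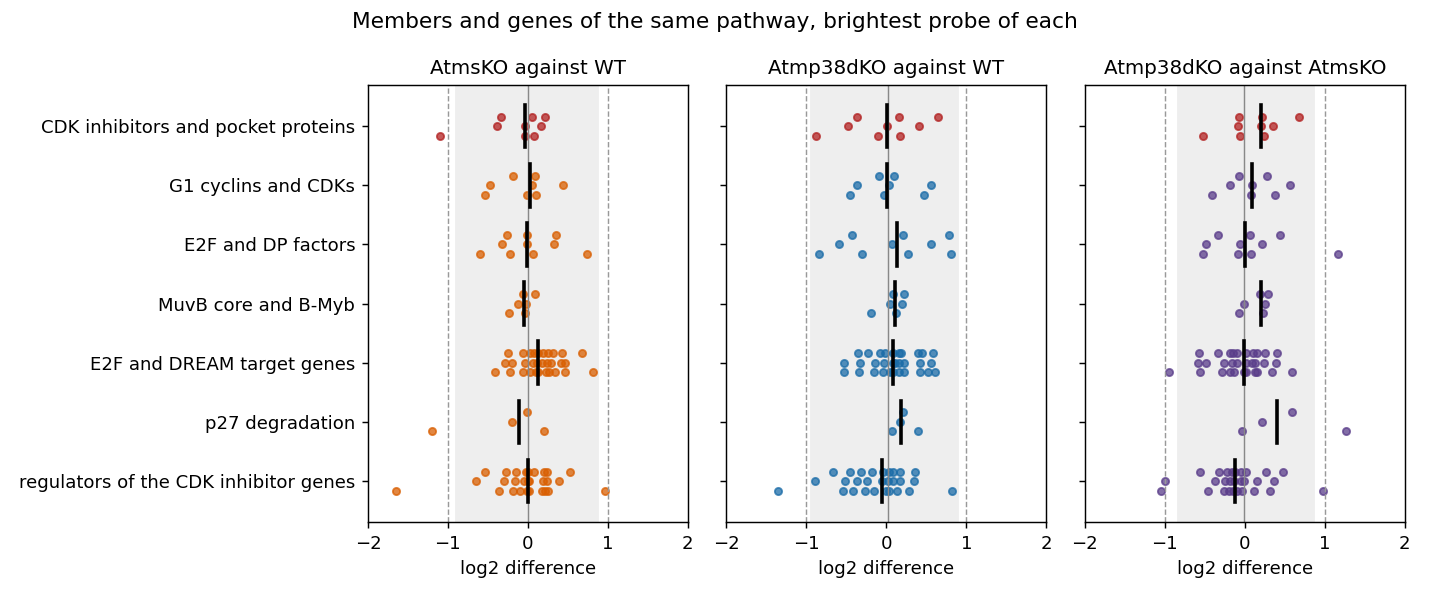
Log2 difference (x axes) of the 9 genes (red) and of the genes of 6 pathway lists at their brightest probe, with a black bar at each list's median, a grey band from the 5th to the 95th percentile of all genes and dashed lines at 2-fold. The medians of the 6 lists stay between -0.13 and 0.41, and Cdkn1a in AtmsKO against WT is the single red point past a dashed line.

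Some marker genes also differed between the arrays. All 7 megakaryocyte genes were well above background on every array. Their summed scaled signal was 37.6 for AtmsKO beside 20.9 for WT and 24.7 for Atmp38dKO, whereas Cdkn1a was lower on both mutant arrays. Most of the rise of that sum on the AtmsKO array came from Pf4, and Gp1bb and Gp9 were level there (-0.01 and 0.01). Pf4 (1.29 ± 0.20) and Vwf (1.01 ± 0.20) were at least 2-fold higher than on the WT array, but only 1 of the 2 other Vwf probes had the same sign. On the array labelled Atmp38dKO the 12 LT-HSC markers summed to 75.1 beside 86.2 on WT and 84.4 on AtmsKO. By the brightest probe 10 of 12 were below WT, led by Fgd5 (-1.72 ± 0.21) and Hoxb5 (-1.64 ± 0.21). Over all genes 52.2% were above WT. Of the other measured probes of these 10, 1 of 4 for Mecom, 2 of 3 for Meis1 and 3 of 3 for Ctnnal1 had the same sign. The other Slamf1 probe had the opposite sign. Granulocyte genes summed to 31.2, 36.6 and 36.3 for WT, AtmsKO and Atmp38dKO, and B cell genes to 6.46, 6.16 and 6.29. In the same order, monocyte and macrophage genes summed to 34.7, 33.7 and 32.7, T and NK cell genes to 8.43, 8.79 and 10.5, and erythroid genes to 22.3, 19.8 and 21.1. The mast cell list summed to 3.71, 3.67 and 3.25 and the endothelial and stromal list to 5.06, 5.65 and 4.08. Among single genes of these lists at least 2-fold apart against WT, Alas2 and Kdr were higher on both mutant arrays, Pdgfrb was higher and Car1 lower for AtmsKO, Vpreb1 and Adgre1 were lower for both, and Gp5 and Mcpt1 were lower and Mcpt8 higher for Atmp38dKO. The part of these shifts in the values of the 9 genes was not tested.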

How the data were processed

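Cy3-labelled total RNA of sorted LT-HSCs was hybridized to Agilent arrays, 1 per genotype. The deposited scanner files hold intensity values per spot from Agilent Feature Extraction 11.5.1.1, background-subtracted and detrended within the array but not normalized between arrays, with flags for background, saturation and outliers, and mm9 probe positions. The authors also deposited log2 values, which matched log2 intensity minus the array's 75th percentile within 0.02 for 99.6% to 99.8% of probes per array. They served as an alternative.

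Groups came from sample titles. Control and outlier spots were left out, spots of a probe averaged, and log2 intensity minus the 75th percentile over non-control probes taken. A probe was well above background if over 50% of its spots were. Dimmer values were raised to the lowest such signal of the array and give bounds. A gene was read by its brightest probe. The median SD between repeated spots was 0.05 on the log2 scale. The threshold was 2-fold, and counting was tested on simulated data. After scaling, only relative levels remain, and precision is limited by having 3 arrays. Other settings were quantile scaling, median centring, normexp, no floor, the authors' values, other probe rules and 1.5-fold. The text names every member, genes of the pathway lists that were at least 2-fold apart or that a role needs, LT-HSC markers and markers that differed. Single results of some list genes are not reported here. Members and lists were chosen with earlier results of these data known. Python 3.11.15, pandas 2.3.3 and limma 3.58.1 in R 4.3.3 were used. Promoters came from a RefSeq table, which lists 8 of the 9 genes.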

Additional observations from a re-analysis of the deposited data

How the results depend on the processing

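Of 48 counts of members past the threshold under another setting, 43 equalled the main count. Under normexp background correction the number of members at least 2-fold lower in AtmsKO against WT went from 1 to 0, since Cdkn1a came to -0.78. With the mean over all probes of a gene the number lower in Atmp38dKO against WT went from 0 to 1, again Cdkn1a. At a 1.5-fold threshold 1 member was higher (Rb1) and 1 lower (Cdkn1a) in Atmp38dKO against WT, and 1 was higher (Rb1) in Atmp38dKO against AtmsKO. With normexp the brighter Rb1 probe fell short of 1.5-fold in both comparisons (0.41 and 0.42). No called difference changed sign under any scaling. Of 162 differences of single member genes, 156 kept their sign, as did all 30 of at least 0.5 on the log2 scale. No paired analysis was possible because there was a single array per genotype, and leaving out an array would remove a whole group. Dim probes limit Cdkn2a and Cdkn2b most. The choice of alternatives for genes outside the 9 was made after the values were seen.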

Other observations

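The noncoding RNA lincP21 lies 32.9 kb before the most upstream Cdkn1a probe on mm9 (chr17:29195041-29195100) and is known as a p53 target. It was chosen here after its values were seen. Its processed signal was 19.7, 14.2 and 124 units for WT, AtmsKO and Atmp38dKO, which made it 5.45-fold higher on the array labelled Atmp38dKO than on the WT array, where all 3 Cdkn1a probes were lower. Under normexp the difference was 1.13 on the log2 scale, still over 2-fold. It has 1 probe and no replicate array.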
